A study of Mus musculus with 6 samples.

Results

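The miR-21a hairpin gives rise to a pair of mature miRNAs, mmu-miR-21a-5p and mmu-miR-21a-3p, and both were found by name among the 598 miRNA names of the deposited count table. They were taken as 2 members, with 1 entry kept for each name (the entry with the highest total). The small RNA came from exosomes, the small vesicles that cells release, of RAW264.7, an established mouse macrophage line. M0-exo libraries came from RAW264.7 cells grown for 24 h without added cytokine. M2-exo libraries came from RAW264.7 cells given IL-4 and IL-13, each at 20 ng/mL, over the same time. The methods of the study describe a move to medium without serum after the cytokine treatment, before the supernatant was collected. They do not describe this step separately for M0 cells. Each group had 3 libraries, all with the batch label 1. The labels do not say that replicates came from separate cultures, so p-values measure only the spread between these libraries, which may be technical. Library totals were 1453348, 1155464 and 863194 counts in M0-exo replicates 1, 2 and 3, and 937317, 860204 and 969974 counts in the M2-exo replicates.

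A miRNA hairpin is cut by Drosha and Dicer into a short duplex, from which 1 strand (the guide) is usually kept in an Argonaute protein and the other (the passenger) is mostly lost. The guide pairs through its seed, bases 2 to 8, with sites in the 3′UTRs of messenger RNAs and lowers their output. In miR-21a the 5p arm is the usual guide, an abundant miRNA of macrophages and many other cells that is best known for repressing Pdcd4, a translation inhibitor and tumour suppressor.

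The mature sequences of both arms are shown because the comparison is made between them, with the seed in capitals. They stand in the deposited table and equal the RefSeq entries for GRCm38.p6.
mmu-miR-21a-5p: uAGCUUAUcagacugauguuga
mmu-miR-21a-3p: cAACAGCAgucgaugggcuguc
The arms differ in base composition, with a GC content of 36.4% for miR-21a-5p and 59.1% for miR-21a-3p, and each is 22 bases long. Their seeds differ, and 0 other miRNAs of the table carried the seed of either arm. RefSeq lists a further mature miRNA with the seed of the 5p arm, which differs from it towards the 3′ end and was not analysed here.
mmu-miR-21c: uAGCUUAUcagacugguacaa
On the minus strand of chromosome 11, miR-21a-5p lies at chr11:86584120-86584141 and miR-21a-3p at chr11:86584082-86584103 (GRCm38). The hairpin of 92 bases, from 86584067 to 86584158, lies inside exon 12 of a protein-coding transcript of Vmp1 on the same strand, within its annotated 3′UTR. The submitters' processing notes name the build mm39, and the table itself gives no coordinates, so these positions come from the annotation of GRCm38 alone.

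To show what a match to this seed looks like, the longest annotated 3′UTR of Pdcd4 was searched on its sense strand for ATAAGCT, the reverse complement of the 5p seed. Pdcd4 was chosen as the best known target and not by any value of these libraries. Its 717 bases held 1 match, at chr19:53929432-53929439 in exon 12 on the plus strand, with an A after the match (an 8mer), shown in capitals.
Pdcd4 site: gtgttctgATAAGCTActttctaa
Among the longest 3′UTRs of 21020 genes, 7.18% held the ATAAGCT motif and 2.1% held the 8mer. Among 8066 genes with a 3′UTR between 0.5 and 2 times the length of that of Pdcd4, the shares were 3.5% and 0.793%. Of the genes the study examined, Syk has a 3′UTR of 2997 bases with 0 matches and Stat3 one of 3701 bases with 2. In the same range around those lengths, 14.2% and 16.5% of genes held the motif. A match is a description of the letters and measures no binding.

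miR-21a-5p, the guide arm, was detected in every library. M0-exo replicates 1, 2 and 3 held 504, 289 and 142 counts of it. M2-exo replicates held 302, 250 and 336. Since the libraries differ in depth, counts were divided by the library total and scaled by TMM (a factor per library that aligns most miRNAs), which gives CPM, counts per 1000000. On this scale M0-exo replicates stood at 323, 231 and 153 CPM, and M2-exo replicates at 354, 299.7 and 384 CPM. Replicate 1 of M0-exo was above replicate 2 of M2-exo, so the groups overlapped, although the remaining M0-exo libraries were below all M2-exo libraries.

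The M0-exo mean was 235 ± 85.1 CPM and the M2-exo mean was 346 ± 42.8 CPM (SD, n = 3 each). The log2 fold change of M2-exo over M0-exo was 0.55 (standard error 0.18, unadjusted p = 0.00207 and adjusted p = 0.0258 from edgeR's quasi-likelihood test with Benjamini-Hochberg adjustment over all 598 miRNAs). A miRNA was called when its absolute log2 fold change was at least 0.5 with an unadjusted p below 0.05, and miR-21a-5p was called as higher. By this rule 60 miRNAs (10% of 598) were called, with 22 higher (3.68%) and 38 lower (6.35%) in M2-exo, and 53 (8.86%) had an adjusted p below 0.05. Among these 22, ranges of the groups overlapped for miR-21a-5p, and also for miR-126a-5p and miR-378c, which are named after their values were seen. Separate ranges were not particular to called miRNAs, since miR-1839-5p and let-7e-5p had them without a call. The share with separate ranges over all 598 miRNAs was not counted. When libraries were scaled by their totals alone, the split became 10 higher against 63 lower, and the median over all miRNAs moved from 0.03 to -0.18 (log2).

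The size of the difference in miR-21a-5p stood close to the threshold, and its call was lost under several settings. Without M0-exo replicate 3, the library with the lowest value, the log2 fold change was 0.32 (edgeR, unadjusted p = 0.103, adjusted p = 0.583), and without M2-exo replicate 3 it was 0.47 (adjusted p = 0.163). Without M0-exo replicate 1, the highest of its group, it was 0.85 (adjusted p = 0.000263). It was 0.33 with no scaling beyond the library total (adjusted p = 0.42) and 0.33 with an offset for GC content (adjusted p = 0.368). Over the 18 settings with an adjusted p, that value ranged from 0.000263 to 0.583 and was below 0.05 in 8. Some settings kept the call with a higher adjusted p, among them DESeq2 (0.188) and edgeR on miRNAs with a mean of at least 10 counts (0.102). The edgeR fit took the quasi-dispersion of each miRNA from a fit shared over all miRNAs (infinite prior degrees of freedom), so the spread of miR-21a-5p itself did not enter its p on its own. An exact two-sided permutation test of log2 CPM over the 6 libraries, added after the data were seen, gave p = 0.2, where the smallest p that 20 arrangements allow is 0.1.

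**Figure D1:**
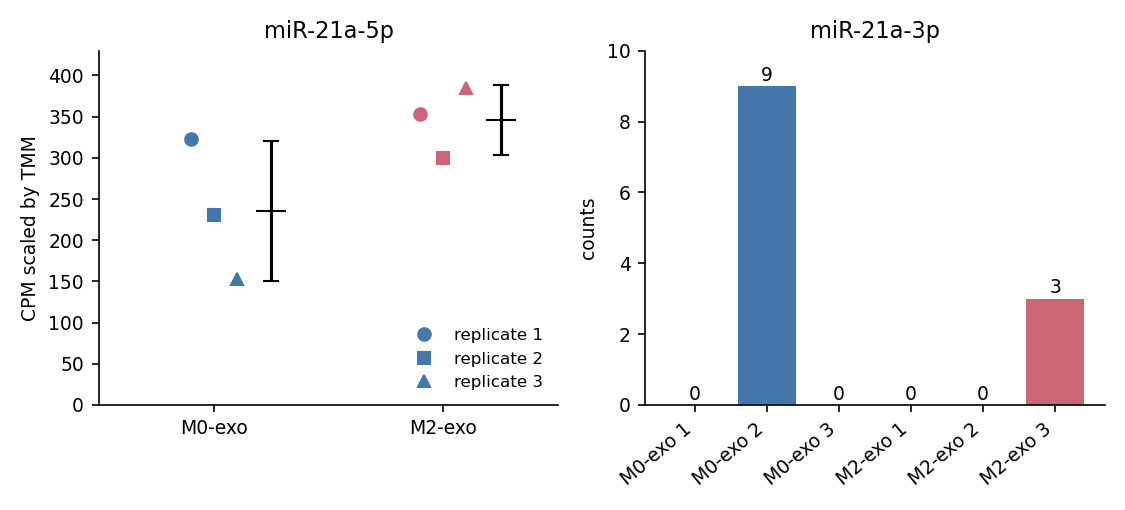
Levels of the arms in each library. The left panel gives the TMM-scaled CPM of miR-21a-5p for each replicate with the group mean and SD (n = 3), and the right panel gives the counts of miR-21a-3p. M0-exo libraries span 153 to 323 CPM and M2-exo libraries 299.7 to 384 CPM, and the 3p arm is above 0 in 2 of 6 libraries.

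**Figure D2:**
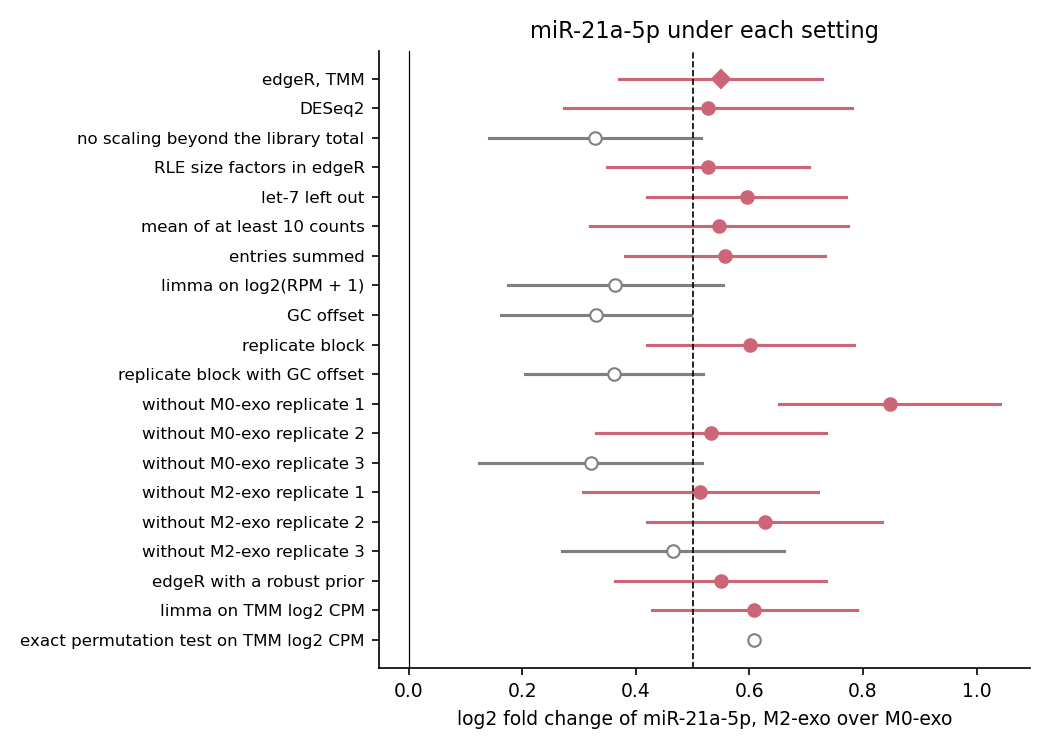
Log2 fold change of miR-21a-5p under each setting, with 1 standard error on either side where the test gives one. The dashed line is the threshold of 0.5. Filled symbols mark settings in which miR-21a-5p was called, and open circles those in which it was not, among them the exact permutation test, whose smallest p of 0.1 cannot pass. All values lie above 0, from 0.32 to 0.85.

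Before TMM scaling, M0-exo libraries held 347, 250.1 and 164.5 CPM of miR-21a-5p (254 ± 91.2, SD, n = 3). M2-exo libraries held 322, 291 and 346 CPM (319.7 ± 28.0, SD, n = 3). Exact 95% intervals (Clopper-Pearson, counting error only) ran from 317 to 378 CPM in M0-exo replicate 1 and from 139 to 194 CPM in M0-exo replicate 3, so these replicates differed by more than counting error. In M0-exo, the libraries with more counts in total also had more CPM of miR-21a-5p, and the same order held in M2-exo. The part of depth in the difference was not tested. By abundance, miR-21a-5p ranked 75, 86 and 98 for M0-exo replicates, 75, 77 and 71 for M2-exo replicates, and 80 of 598 by its mean.

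The spread within M0-exo was wide for this level. The highest M0-exo library was 2.11 times the lowest for miR-21a-5p, against a median of 1.29 over the 62 miRNAs with a mean between 100 and 1000 CPM. This was the highest ratio of the 62, and the next was 2.11 as well. In M2-exo the ratio of miR-21a-5p was 1.28, close to the median of 1.26 over the 62. These ratios were looked at after the values were seen and have no test.

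**Figure D3:**
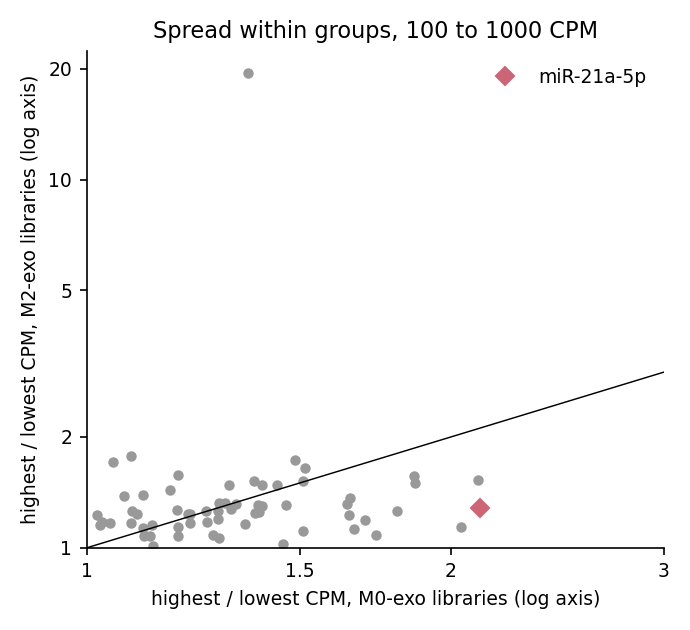
Ratio of the highest to the lowest library within each group, for 62 miRNAs with a mean of 100 to 1000 CPM, on log axes. The line marks equal ratios. miR-21a-5p lies at 2.11 in M0-exo and 1.28 in M2-exo.

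GC content moved with the fold change across miRNAs. Among miRNAs with a mean of at least 10 counts, the median log2 fold change was 0.30 for the 8 with a GC content above 35% and up to 40%, the band that holds miR-21a-5p itself, 0.22 for the 15 with a lower GC content and -0.40 for the 68 above 60%. Within M0-exo the same band of 8 miRNAs was higher in replicate 1 than in replicate 3 by a median of 0.58 (log2). The median was 0.19 in the 15 miRNAs of lower GC content and 0.13 in the 29 of the next band. It was 0.0544, 0.0253 and 0.0655 in the bands up to 50%, 55% and 60%, and -0.36 in the 68 miRNAs above 60%. The offset fitted for the GC content of miR-21a-5p was 0.14, -0.21 and -0.20 for M0-exo replicates 1, 2 and 3 and 0.12, 0.045 and 0.31 for M2-exo replicates (log2). With these offsets in the test the log2 fold change of miR-21a-5p was 0.33, below the threshold. The part of GC content in the spread within M0-exo was not tested.

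**Figure D4:**
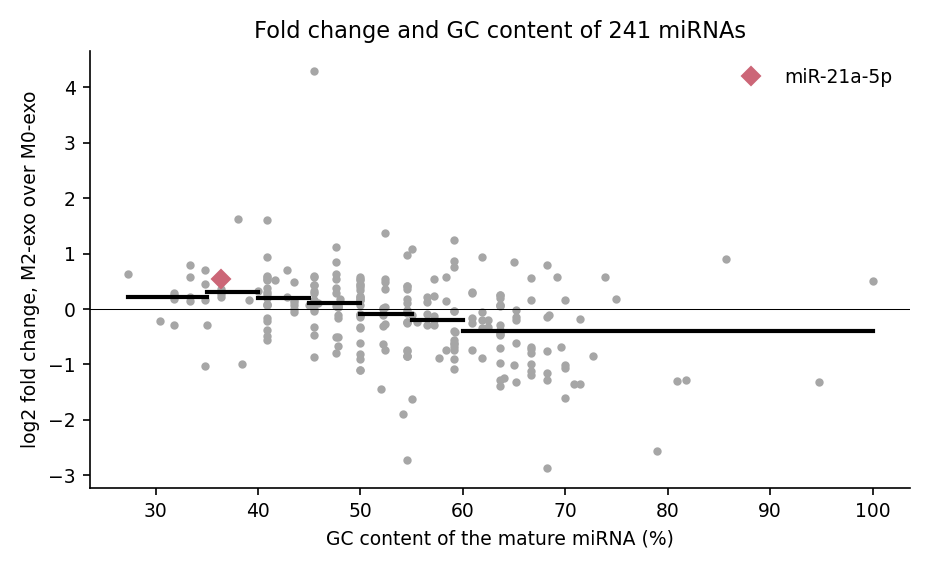
Log2 fold change against the GC content of the mature miRNA, for 241 miRNAs with a mean of at least 10 counts. Each point is a miRNA, black bars are medians within GC bands, and the diamond is miR-21a-5p at 36.4% and 0.55. The medians are 0.22 up to 35%, 0.30 between 35% and 40% and -0.40 above 60%.

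miR-21a-3p, the passenger arm, was close to the limit of detection. M0-exo replicates 1, 2 and 3 held 0, 9 and 0 counts, and M2-exo replicates held 0, 0 and 3. Only M0-exo replicate 2 was above 3 counts, the number that a count of 0 allows, which is worth between 2.06 and 3.49 CPM depending on the library. The fitted log2 fold change of -0.99 (edgeR, unadjusted p = 0.718, adjusted p = 0.88) rests on these 12 counts, depends on the prior count and is no bound. Without M0-exo replicate 2 it was 3.37. The groups also differed in how low counts were filled, with 11, 17 and 17 miRNAs at 1 or 2 counts across M0-exo replicates against 79, 56 and 68 across M2-exo replicates, and 368 to 374 miRNAs detected against 400 to 417. How this bears on a count of 0 for the 3p arm was not tested. No difference in the 3p arm was called.

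The arm ratio compares the strands within a library. Library totals cancel in it only where both arms are counted, and effects that differ between the arms, such as those of GC content, do not cancel. Over all libraries, 1823 counts of the 5p arm stood against 12 of the 3p arm, 152 to 1. M0-exo replicate 2 held 9 of the 12, and without it the counts were 1534 against 3, too few for a firm ratio. The 3p share of both arms was 3.02% in M0-exo replicate 2 (9 of 298, exact 95% interval 1.39% to 5.66%) and 0.885% in M2-exo replicate 3 (3 of 339, exact 95% interval 0.183% to 2.56%). In the other 4 libraries the limit of 3 counts, a different rule from these intervals and lower than their upper bounds, allows a share of up to 0.595% and 2.11% in M0-exo replicates 1 and 3, and up to 0.993% and 1.2% in M2-exo replicates 1 and 2. The interval of M0-exo replicate 2 lay above the exact upper bound of 0.729% in M0-exo replicate 1, so replicates of the same group differed.

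With 0.5 added to each arm, the log2 ratio of 5p to 3p was 9.98, 4.93 and 8.15 for M0-exo replicates, and 9.24, 8.97 and 6.59 for M2-exo replicates. The lowest value of each group belonged to the library in which the 3p arm was counted. M0-exo averaged 7.69 ± 2.56 and M2-exo averaged 8.27 ± 1.46 (SD, n = 3 each). Their difference of 0.58 was within the spread between replicates (exact two-sided permutation test, p = 0.7). Without M0-exo replicate 2 the difference was -0.80 (exact permutation test, p = 0.7), and with the GC offset on both arms it was 0.14 (exact permutation test, p = 0.9). Where the 3p arm was at 0, the ratio is set by the depth of the 5p arm and the added 0.5.

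In a fit over the 66 hairpins with at least 10 counts in each arm, the log2 fold change of miR-21a-5p exceeded that of miR-21a-3p by 1.54 (edgeR diffSpliceDGE, unadjusted p = 0.39, adjusted p = 0.629). Arm usage was called at an adjusted p below 0.05 for 5 hairpins (7.58%), and miR-21a was not among them. These were miR-125a, miR-139, miR-15b, miR-23a and miR-342, named after their values were seen. With the offset for GC content 12 hairpins were called, and with the replicate number as a block 3 were.

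By mean log2 ratio miR-21a stood at 7.98, at place 10 of the 66 from the most 5p-biased. The hairpins just above it were miR-674 at 8.18 and miR-10a at 8.65, and those just below were miR-15b at 7.75 and miR-423 at 7.05. All of these means lie inside the range of miR-21a over the libraries, from 4.93 to 9.98, so its place among them is not resolved. miR-674, with 507 counts of its 3p arm, ranged from 8.06 to 8.30, and miR-423, with 503, from 6.38 to 7.61. The neighbour miR-15b was called for arm usage (edgeR, adjusted p = 0.0276), a call that was lost without M0-exo replicate 2 (adjusted p = 0.0592), M0-exo replicate 3 (0.102), M2-exo replicate 2 (0.163) or M2-exo replicate 3 (0.0677), and also with the replicate number as a block (0.103) or with at least 1 count in each arm (0.158). The fitted difference was -3.90 and lay between -6.12 and -3.21 over the alternatives, below 0 in each, but miR-15b-3p was at 2, 0 and 0 counts across M0-exo replicates, so its size depends on the prior count and is no bound.

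**Figure D5:**
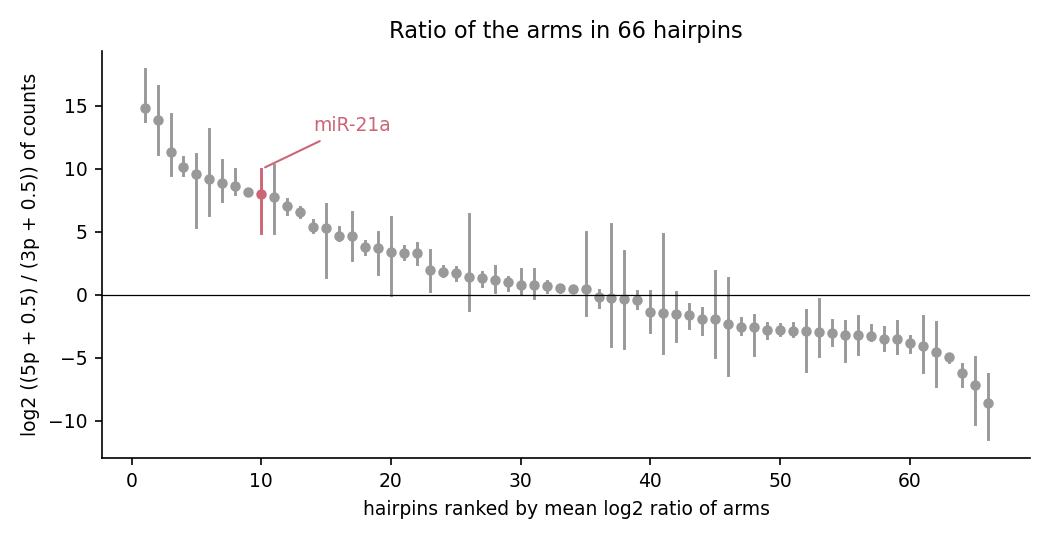
Log2 ratio of 5p to 3p counts, with 0.5 added to each arm, for 66 hairpins ranked by their mean. Points are means over 6 libraries and vertical lines run from the lowest to the highest library. miR-21a is at place 10, with a mean of 7.98 and a range from 4.93 to 9.98.

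The miRNAs with a profile most like that of miR-21a-5p over the 6 libraries were found by the root mean square difference of centred log2 CPM, among 240 others. They were miR-27b-3p (0.23), miR-1839-5p (0.24), miR-26a-5p (0.25), miR-140-3p (0.26) and miR-365-3p (0.26). miR-26a-5p, an abundant miRNA in many tissues, rose from 3867 ± 355 to 5751 ± 421 CPM (SD, n = 3), a log2 fold change of 0.57 (edgeR, adjusted p = 7.5e-08), which fell below the threshold to 0.35 with no scaling beyond the library total and to 0.40 with the GC offset. miR-27b-3p was called at 0.54 (edgeR, unadjusted p = 0.016) with an adjusted p of 0.137, and its call was lost under 7 of 18 settings, among them leaving out M0-exo replicate 3 (0.37) or M2-exo replicate 3 (0.36). The log2 fold changes of miR-1839-5p (0.52, or 0.30 with no scaling beyond the library total), miR-140-3p (0.54, or 0.33 on that scale) and miR-365-3p (0.17) were not called. That of miR-140-3p passed with the GC offset, at 0.69, and without M0-exo replicate 1, at 0.64, and that of miR-365-3p turned below 0 under 5 settings. For miR-21a-3p the nearest profiles were miR-1931 (0.57), miR-127-3p (0.60), miR-6981-5p (0.61), miR-1945 (0.62) and miR-423-3p (0.64), a likeness that rests on 12 counts.

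In mean CPM, miR-21a-5p stood between miR-425-3p and miR-700-3p above it and miR-107-3p and miR-339-3p below it. miR-339-3p was called as higher, with 201 ± 20.3 CPM for M0-exo, 301 ± 33.1 CPM for M2-exo (SD, n = 3) and a log2 difference of 0.58 (edgeR, adjusted p = 0.024). Its value was 0.37 with no scaling beyond the library total and 0.4999 without M0-exo replicate 2, both below the threshold, and 1.05 with the GC offset (adjusted p = 1.77e-07). Its groups did not overlap, and its GC content of 73.9% lies far from the 36.4% of miR-21a-5p. The other neighbours had log2 fold changes of -0.19 (miR-425-3p), -0.18 (miR-700-3p) and 0.04 (miR-107-3p), were not called, and each turned sign with the offset for GC content.

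Among 19 listed miRNAs that act in macrophage inflammation and its control, 17 were in the table, of which 0 were called as higher in edgeR and 2 as lower, against 3.68% and 6.35% of all 598 miRNAs. Among the 14 that averaged 10 counts or more the median log2 fold change was 0.09, against -0.01 over 241 such miRNAs. miR-155-5p, which NF-kappaB signalling induces in activated macrophages, was counted 1312, 898 and 657 times across M0-exo replicates, and 301, 334 and 307 times across M2-exo replicates. It fell from 755 ± 74.2 to 368 ± 28.1 CPM (SD, n = 3), a log2 fold change of -1.04 (edgeR, adjusted p = 1.85e-10), the opposite direction to miR-21a-5p. miR-222-3p had a log2 fold change of -0.62 (edgeR, unadjusted p = 0.00588, adjusted p = 0.0596), its groups overlapped, and its call was lost without M0-exo replicate 3, at -0.37. The most abundant members, let-7e-5p (0.07), miR-24-3p (0.41) and miR-210-3p (0.05), were below the threshold on the log2 fold change, which miR-24-3p passed with the GC offset, at 0.51, while it was 0.19 with no scaling beyond the library total. Those of let-7e-5p and miR-210-3p turned below 0 with no scaling beyond the library total, and that of miR-210-3p was 0.38 with the GC offset (edgeR, adjusted p = 0.0175). In edgeR, miR-24-3p (adjusted p = 0.00268) and miR-125b-5p (log2 fold change 0.39, adjusted p = 0.0226) passed an adjusted p of 0.05 as higher. Only miR-155-5p passed it as lower. miR-125b-5p is named after its values were seen. The split of 0 against 2 calls thus depends on the fold change threshold.

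Of 8 miRNAs linked to IL-4 or alternative activation, 5 were in the table, with 1 called as higher and 0 as lower in edgeR, against 3.68% and 6.35% of all 598 miRNAs. Among the 4 that averaged 10 counts or more its median was 0.35 on the log2 scale, against -0.01 over 241 such miRNAs. miR-223-3p, a myeloid miRNA, averaged 13.6 ± 4.37 CPM for M0-exo and 41.9 ± 8.61 CPM for M2-exo (SD, n = 3), and its log2 fold change was 1.60 (edgeR, unadjusted p = 0.00558, adjusted p = 0.0582). The most abundant members were let-7c-5p (0.30), miR-378a-3p (0.36) and miR-34a-5p (0.34), below the threshold. With no scaling beyond the library total these values were 0.084, 0.15 and 0.12, and with the GC offset that of let-7c-5p was 0.12.

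The labelled cell type was checked with myeloid miRNAs. All 5 (miR-223-3p, miR-142a-3p, miR-142a-5p, miR-146a-5p and miR-155-5p) were detected in every library, and summed to 1516, 1183 and 1200 CPM for M0-exo and to 920.1, 1126 and 1174 CPM for M2-exo. miR-155-5p was the most abundant of them in every M0-exo library, and miR-142a-3p in every M2-exo library. The sums combine members called in opposite directions, miR-223-3p as higher and miR-155-5p as lower. Markers of other sources were also counted. Serum and red blood cell miRNAs (3 of 4 in the table, miR-486a-5p the most abundant) summed to 80.7, 110.2 and 90.3 CPM for M0-exo and 133, 81.5 and 126 CPM for M2-exo. The liver miRNA miR-122-5p stood at 40.3, 47.1 and 54.8 CPM for M0-exo and at 160.4, 128 and 2497 CPM for M2-exo, so that M2-exo replicate 3, the library with the most miR-21a-5p by TMM-scaled CPM, stood apart. Stromal miRNAs (2 of 4, miR-143-3p the most abundant) summed to 19.9, 18.4 and 23.7 CPM for M0-exo and to 43.3, 31.2 and 74.3 CPM in M2-exo, again highest in M2-exo replicate 3. Among these markers, miR-122-5p and the stromal miR-199a-3p were called as higher in M2-exo, the latter at or below 3 counts in each M0-exo library. The endothelial miRNA miR-126a-3p was at 104, 95.8 and 96.8 CPM for M0-exo and at 129, 98.3 and 175 CPM in M2-exo. Epithelial miRNAs (3 of 5, miR-200c-3p the most abundant) ranged from 40.9 to 66.3 CPM. Muscle (1 of 3) and neuronal (1 of 2) miRNAs stayed at or below 9.59 CPM. miR-144-3p, miR-145a-5p, miR-214-3p, miR-200b-3p, miR-141-3p, miR-133a-3p, miR-206-3p and miR-124-3p had no entry in the table used here. The part of RNA from such sources in the level of miR-21a-5p was not tested beyond the value without M2-exo replicate 3, 0.47. In libraries from pooled vesicles, fewer vesicles with a miRNA and less of it per vesicle cannot be told apart.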

How the data were processed

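Small RNA of 3 M0-exo and 3 M2-exo samples was measured. The authors deposited raw read counts for each mature miRNA and precursor (638 entries) with RPM values, which the authors obtained by dividing by the library sum. The aligner and counting tool are not given in the sources used here, and the processing notes name the build mm39. Per name, only the entry with most counts was used, leaving 598 names, and groups were compared with edgeR 4.0.16 in R 4.3.3 (TMM, quasi-likelihood, no covariates, infinite prior degrees of freedom). Arm usage was tested with diffSpliceDGE. DESeq2 1.42.0, limma 3.58.1 on log2(RPM + 1), other scalings, filters, a GC offset, the replicate block and leaving out each library were alternatives. Named miRNAs were both arms, 5 like each arm, 2 neighbours on either side in level and in arm ratio, and from each list the 3 most abundant and the called members. Members and lists were chosen with earlier results of these data known. Only the main edgeR and diffSpliceDGE fits were tried on simulated counts, drawn with the same dispersion for every miRNA. Such counts cannot show how a wider spread in a single miRNA acts on its p. Totals ran from 860204 to 1453348 counts, where 3 counts are worth 2.06 to 3.49 CPM. Intervals and limits cover counting error only. 3′UTRs came from GENCODE M21 on GRCm38 (Python 3.11.15, with figures in matplotlib 3.10.9).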

Additional observations from a re-analysis of the deposited data

How the results depend on the processing

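The log2 fold change of miR-21a-5p stayed above 0 in all 19 settings and was called in 12 of the 18 whose test could pass the threshold, with an adjusted p below 0.05 in 8. It was not called with no scaling beyond the library total (0.33), limma on log2(RPM + 1) (0.36), the GC offset (0.33) or the replicate block with the GC offset (0.36). The exact permutation test (0.61) gave p = 0.2, above the smallest p of 0.1 that it allows, which itself could not have passed the threshold. Leaving out each library gave 0.32 to 0.85. The cause of these changes was not tested. The robust prior, limma on TMM-scaled log2 CPM and the permutation test were chosen after seeing the data. For miR-21a-3p, leaving out each library gave -4.45 to 3.37, and for the arm ratio difference -0.80 to 1.72. The arm ratio without a pseudocount was not run, since the 3p arm was at 0 in 4 libraries. miR-21a had under 10 counts of its 3p arm without M0-exo replicate 2 or M2-exo replicate 3, and under 50 in all, so those fits gave no arm usage value. The others gave 0.98 to 2.44, not called.

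The count of called miRNAs was 27 with the fold change threshold raised to 1 on the log2 scale, and 51 to 74 when each library was left out. Hairpins called for arm usage numbered 3 with at least 1 count in each arm, 12 with the GC offset, 3 with the replicate block and 2 to 8 when each library was left out.

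Same-numbered libraries did not deviate together (correlations across 241 miRNAs, which are not independent, of -0.053, 0.0045 and -0.04), so no sign of pairing was seen. With 3 libraries in each group this cannot show whether same-numbered libraries were prepared together. With the replicate block 56 miRNAs were called, and the log2 fold change of miR-21a-5p was 0.60, that of miR-21a-3p -0.34, the arm ratio difference 0.58 and the arm usage difference 1.19.

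Named miRNAs near 0 changed sign. With no scaling beyond the library total the log2 fold change was -0.051 for miR-365-3p, -0.18 for miR-107-3p, -0.15 for let-7e-5p and -0.16 for miR-210-3p. With limma on log2(RPM + 1) these were -0.046, -0.21, -0.18 and -0.19. With the GC offset it was -0.12 for miR-365-3p, 0.10 for miR-425-3p, 0.27 for miR-700-3p, -0.012 for miR-107-3p and -0.11 for let-7e-5p, and with the replicate block added -0.11, 0.11, 0.29, -0.019 and -0.11. Leaving out each library gave -0.024 to 0.48 for miR-365-3p, -0.35 to 0.019 for miR-425-3p, -0.032 to 0.13 for miR-107-3p and -0.024 to 0.18 for miR-210-3p.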
